A study of Mus musculus with 18 samples.

Results

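The 10 genes described here belong to the NF-kB system and were followed through 6 groups of mouse macrophage-like cells. They are the subunit genes Nfkb1, Nfkb2 and Relb, the inhibitor genes Nfkbia, Nfkbie and Nfkbiz, the brake gene Tnfaip3, and the survival targets Traf1, Birc3 and Bcl2a1a. They were chosen by name, with earlier results of these data known. Every row of the authors' deposited table that carries their symbols and joins 2 of the 6 groups was taken. All 10 genes had at least 1 such row. They are 10 of the 5455 named genes listed between these groups, and they hold 17 of 7315 transcript or locus entries. All 17 entries were found under the same symbol in the GENCODE M21 annotation, 14 of them as protein-coding transcripts.

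The cells were RAW264.7, a mouse line with macrophage properties, and RNA was sequenced from 3 samples per group. Construct cells carried the lentiviral vector pINDUCER20-mCITED1, from which doxycycline induces the mouse co-regulator CITED1, and received doxycycline at 100 ng/mL with interferon-gamma at 200 U/mL (the doses the labels give as standard), interferon-gamma alone, doxycycline alone, or neither. Parental cells carried no construct and received doxycycline or were left untreated. Interferon-gamma was not given to parental cells in these groups, and the labels do not say whether the construct line is 1 clone or how long each group was treated. The deposited table gives, for each pair of groups, a fold, a q-value (a p-value adjusted by the authors for multiple tests) and 1 summed FPKM, a level scaled by transcript length and library size. It holds no value per sample, so no SD, n or depth can be attached to a level, and every call below is the authors' own. Levels of a group were rebuilt from fold and sum, and members' levels of at least 1 FPKM rebuilt from several rows differed by at most 0.339%. A row exists only where the fold was at least 2 and q at most 0.0499, so a missing row does not show an unchanged gene.

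NF-kB proteins are dimeric transcription factors that sit in the cytoplasm of resting macrophages, held by IkB inhibitors. In the canonical route, receptors for TNF, interleukin-1 and microbial products activate the IKK complex, IkB is degraded, and p50 (from Nfkb1) enters the nucleus with RelA or c-Rel. In the noncanonical route, receptors such as CD40 stabilise the kinase NIK, p100 (from Nfkb2) is processed to p52, and p52 acts with RelB. Many of the genes that restrain the pathway are its own targets, among them Nfkbia, Nfkbie and Tnfaip3, and so are genes that protect against cell death.

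The stretches before the start sites of these genes are shown first, because NF-kB acts through short kappaB elements and interferon-gamma through the GAS element. The RefSeq promoter table (GRCm38.p6) held 10 start sites for 7 members: Nfkb2, Nfkbia, Nfkbie, Tnfaip3, Traf1, Birc3 and Bcl2a1a. The 250 bases before each start were searched on both strands for the 10-base kappaB consensus, for GAS (TTCNNNGAA) and for an ISRE core (GAAANNGAAA), and overlapping matches were merged. The 4 genes with a kappaB match and the 2 genes that rose further with doxycycline in stimulated cells are printed 5′ to 3′, with kappaB and GAS matches in capitals.
Nfkb2 (chr19:46304487-46304736, plus strand): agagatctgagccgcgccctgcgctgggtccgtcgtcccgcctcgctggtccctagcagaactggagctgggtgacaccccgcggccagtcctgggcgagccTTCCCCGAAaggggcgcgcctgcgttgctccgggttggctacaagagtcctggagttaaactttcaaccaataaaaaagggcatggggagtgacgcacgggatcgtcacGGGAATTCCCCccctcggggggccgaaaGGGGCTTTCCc
Nfkbia (chr12:55492648-55492897, minus strand): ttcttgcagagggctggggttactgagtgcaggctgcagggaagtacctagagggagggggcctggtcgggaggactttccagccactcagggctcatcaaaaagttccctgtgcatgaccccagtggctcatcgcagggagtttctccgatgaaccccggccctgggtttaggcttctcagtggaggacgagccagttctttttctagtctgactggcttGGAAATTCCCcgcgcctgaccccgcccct
Nfkbie (chr17:45555450-45555699, plus strand): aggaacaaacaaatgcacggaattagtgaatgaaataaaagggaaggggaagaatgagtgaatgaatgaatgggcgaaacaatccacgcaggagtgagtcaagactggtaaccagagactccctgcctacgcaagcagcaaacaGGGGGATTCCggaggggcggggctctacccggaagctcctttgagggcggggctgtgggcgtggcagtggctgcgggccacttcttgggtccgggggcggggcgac
Tnfaip3 (chr10:19015411-19015660, minus strand): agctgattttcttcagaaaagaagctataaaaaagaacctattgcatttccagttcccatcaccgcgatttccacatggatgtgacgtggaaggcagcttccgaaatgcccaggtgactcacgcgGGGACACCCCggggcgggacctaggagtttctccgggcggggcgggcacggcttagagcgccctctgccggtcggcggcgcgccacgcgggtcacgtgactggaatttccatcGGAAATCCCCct
Traf1 (chr2:34961773-34962022, minus strand): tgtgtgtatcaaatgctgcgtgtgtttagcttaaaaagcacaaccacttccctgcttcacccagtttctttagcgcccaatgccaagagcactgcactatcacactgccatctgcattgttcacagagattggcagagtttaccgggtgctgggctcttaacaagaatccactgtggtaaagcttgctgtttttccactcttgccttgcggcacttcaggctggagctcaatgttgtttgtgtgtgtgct
Bcl2a1a (chr9:88956670-88956919, plus strand): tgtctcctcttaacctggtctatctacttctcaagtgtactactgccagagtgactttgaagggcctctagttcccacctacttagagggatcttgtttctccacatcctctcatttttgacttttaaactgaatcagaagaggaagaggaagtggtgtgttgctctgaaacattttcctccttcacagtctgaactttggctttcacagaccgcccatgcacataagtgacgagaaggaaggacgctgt

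Nfkb2 had 2 kappaB matches before its first start, at -39 to -29 and -11 to -2 counted from that start, and a GAS match at -148 to -140. Tnfaip3 had kappaB matches before its first start, at -125 to -116 and at -12 to -3, and none before its second. Nfkbia had a match at -29 to -20 and Nfkbie at -106 to -97. No kappaB match lay in the windows of Traf1, Birc3 or Bcl2a1a, and no ISRE core in any of the 10 windows. Of all 32851 promoter windows of the same length 7.25% held a kappaB match, 7.02% a GAS match and 2.98% an ISRE core. The GENCODE starts of the main Traf1 and Birc3 entries lie 187 and 146 bases downstream of these RefSeq starts, so their windows are not adjacent to the measured transcripts. The main Nfkb2 entry begins 959 bases downstream of the first RefSeq start and 1 base downstream of the second. Each of the 2 later starts also had 1 kappaB match. Counted from the third start, that entry begins at -234 and the match lies at -225 to -216. This match therefore lies downstream of the start of the main entry.
Nfkb2, start 2 (chr19:46305449-46305478, plus strand): tccgacggcaGGAATGTCCCcacaaaagcc
Nfkb2, start 3 (chr19:46305695-46305724, plus strand): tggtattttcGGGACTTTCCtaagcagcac
A match is a run of letters, and whether a factor binds there was not measured.

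**Figure D1:**
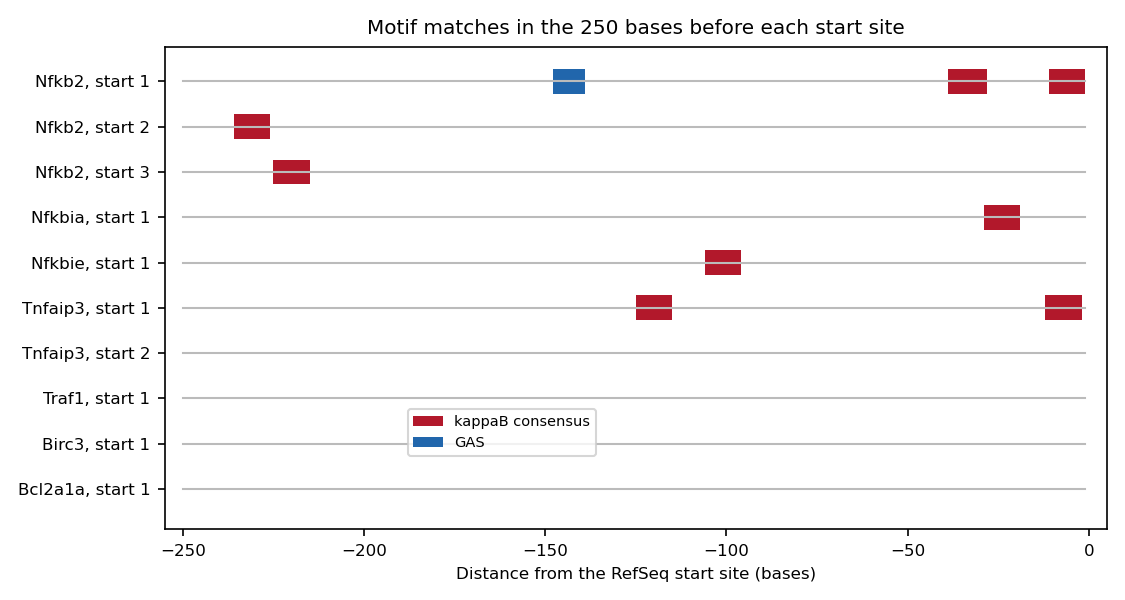
Position of kappaB consensus matches (red) and GAS matches (blue) in the 250 bases before each RefSeq start site of 7 members, in bases from the start. Nfkb2, Nfkbia, Nfkbie and Tnfaip3 hold kappaB matches, and the windows of Traf1, Birc3 and Bcl2a1a hold none.

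The series was first checked as a whole. Cited1 reached rebuilt levels of 86.7 FPKM with both treatments, 11.5 with interferon-gamma alone, 168 with doxycycline alone and 0.703 in untreated construct cells, so interferon-gamma without inducer was accompanied by some Cited1. Of 10 macrophage markers 6 had rows, and they moved in both directions with interferon-gamma. Spi1 was at 350 FPKM with both treatments and 151 with doxycycline alone, Fcgr1 at 274 and 15.5, and Ptprc at 164 and 54.9. Adgre1 was at 5.03 FPKM with both treatments and 13.9 with doxycycline alone, Cd68 at 255 and 661, and Itgam at 20.0 and 44.0. Adgre1 also differed between the lines, at 13.9 and 12.2 FPKM in doxycycline-treated and untreated construct cells and 32.6 and 28.6 in parental cells given the same. Of 3 markers each for B cells, T cells, neutrophils, fibroblasts and epithelial cells 0 had rows, which does not show that they are absent. The part of these markers in the results below was not tested. Of 4 dendritic-cell markers 3 had rows. Clec9a and Xcr1 were high in stimulated cells. Clec9a was at 133 FPKM with both treatments, 80.4 with interferon-gamma alone and 0.0437 in untreated construct cells. Zbtb46 stayed low, at 0.575 FPKM with interferon-gamma alone and 0.183 in untreated construct cells, and Flt3 had no row. The part of these dendritic-cell markers was not tested either. In these bulk samples a change in the share of a cell type and a change of RNA per cell cannot be told apart.

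Each of the 10 genes rose with interferon-gamma in at least 1 of the 2 comparisons in construct cells. With doxycycline present 9 rose, Nfkbia having no row, and without doxycycline 9 rose, Nfkb1 having no row, and 8 rose in both. No member was lower in any of its 99 rows. Among all named genes listed, 33.7% were called higher and 34% lower with interferon-gamma in the presence of doxycycline, and 25.7% higher and 24.5% lower without it. These shares are of genes that have a row in some comparison, as the members do by their choice. The median fold of the called members was 5.15 with doxycycline and 4.64 without, against 3.15 and 2.90 for all genes called higher in the same comparisons. Because the members were chosen with earlier results of these data known, these counts and medians only describe them. The smallest q in the table, 3.9e-04, stood in 89 of the 99 member rows. For the highest entry of all 10 genes every rebuilt level with interferon-gamma was above every level without it, which was also so for 47.8% of the 5260 named genes with a level of each kind. Levels exist only where a row of at least 2-fold exists, and Nfkb1 has 1 level of each kind.

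**Figure D2:**
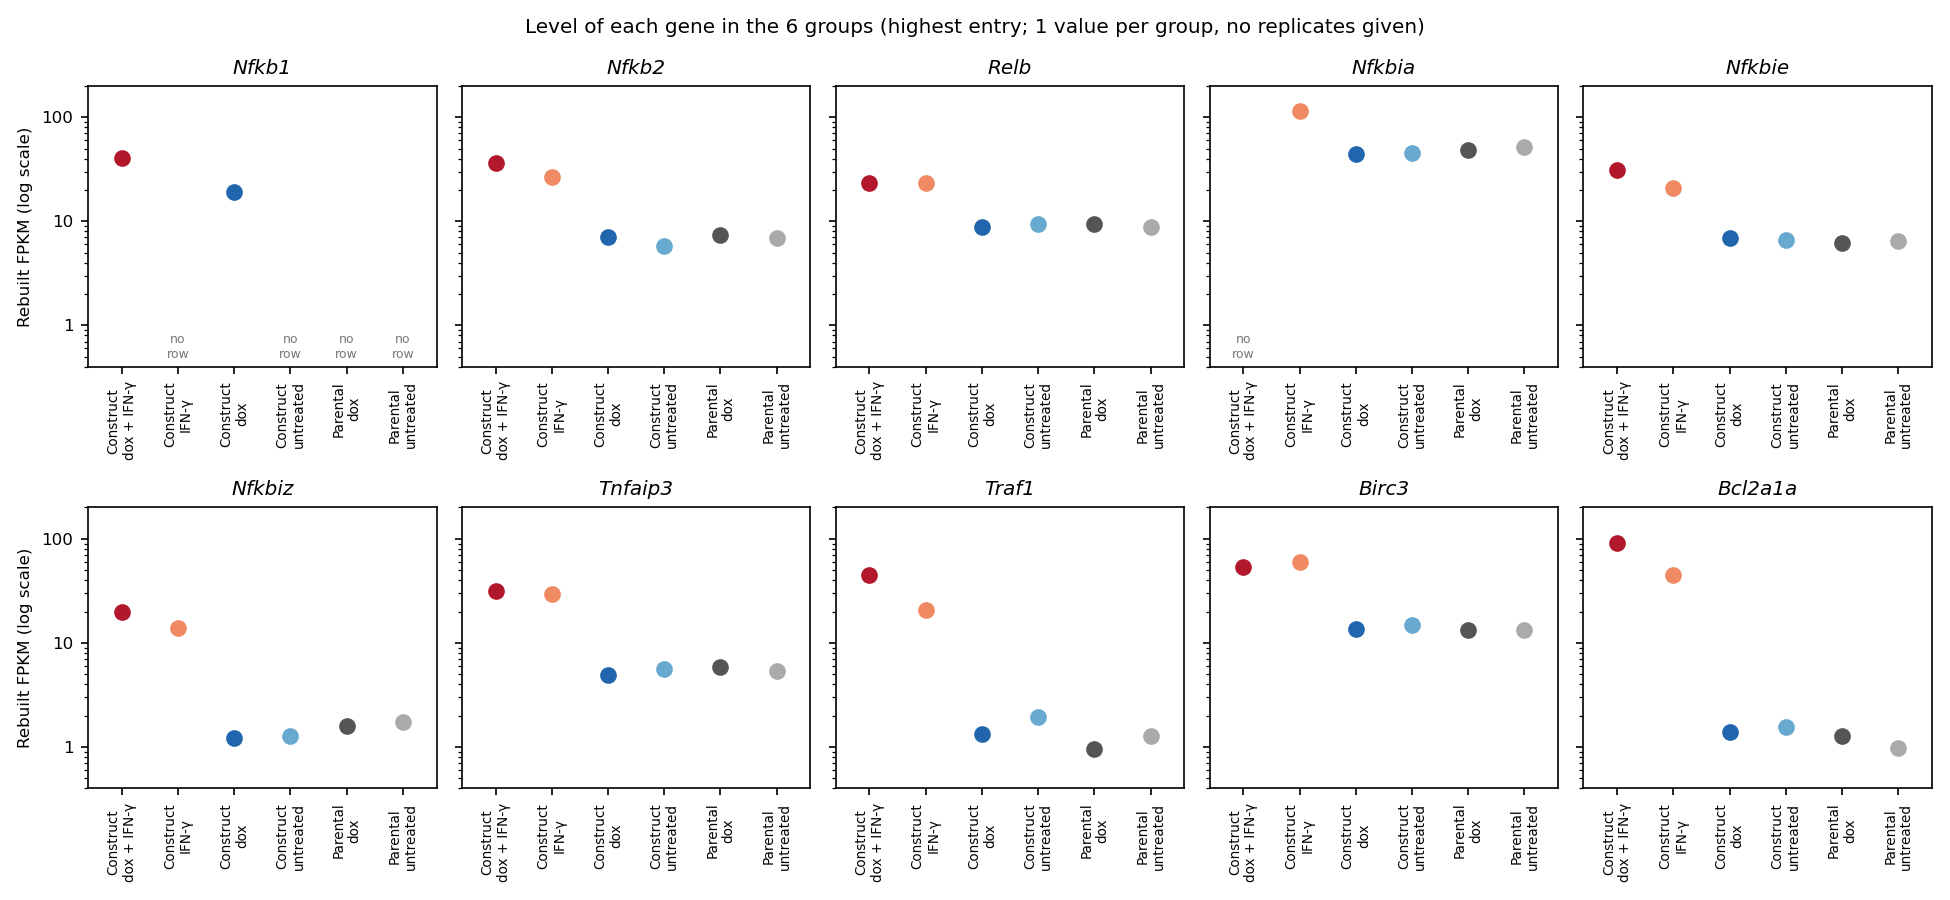
Rebuilt FPKM on a log axis shared by all panels, 1 point per group for the highest entry of each gene, with no replicates given. Where levels could be rebuilt, the points with interferon-gamma lie above those without it, and "no row" marks a group with no level; Nfkb1 has 1 point of each kind.

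Among the subunits, Nfkb2 had the largest interferon-gamma folds. Its main entry (ENSMUST00000111881) stood at 36.7 FPKM with both treatments, 26.7 with interferon-gamma alone, 7.12 with doxycycline alone and 5.75 in untreated construct cells, and at 7.45 and 6.97 FPKM in doxycycline-treated and untreated parental cells. With 1 value per group, both levels with interferon-gamma lay above those of the 4 groups without it. Among named genes with at least 1 level of each kind, in however many groups, 47.8% had every level with interferon-gamma above every level without it. In the authors' deposited table the interferon-gamma fold was 5.15 with doxycycline and 4.64 without (q = 3.9e-04 each). A second Nfkb2 entry, ENSMUST00000236591, starts 63 bases downstream of the first RefSeq start printed above. It was at 4.37 FPKM with both treatments and at 1.17 FPKM in untreated construct cells, a 3.72-fold difference in the authors' deposited table (q = 0.0227).

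Relb, whose protein pairs with p52, was at 23.5 FPKM with both treatments, 23.4 with interferon-gamma alone, 8.87 with doxycycline alone and 9.41 in untreated construct cells. Parental cells had 9.52 FPKM with doxycycline and 8.74 untreated. Relb thus rose with interferon-gamma, 2.65-fold with doxycycline and 2.49-fold without in the authors' deposited table (q = 3.9e-04 each), and reached nearly the same level either way. Nfkb1, the gene of p105 and p50, rose 2.14-fold with interferon-gamma in doxycycline-treated cells, at 40.8 against 19.1 FPKM for its main entry, close to the lowest fold the table holds (q = 3.9e-04 in the authors' deposited table). A shorter Nfkb1 entry, ENSMUST00000164430, was at 14.4 FPKM with both treatments and 5.61 in doxycycline-treated parental cells, 2.57-fold apart with q = 0.0386 in the authors' deposited table. No other Nfkb1 level could be rebuilt.

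The inhibitors started from very different levels. Nfkbia, the gene of IkB-alpha, had the highest level of all members in unstimulated cells. It was at 116 FPKM with interferon-gamma alone, 44.7 with doxycycline alone and 45.8 in untreated construct cells, and at 48.2 and 51.7 FPKM in doxycycline-treated and untreated parental cells. Interferon-gamma without doxycycline raised it 2.54-fold in the authors' deposited table (q = 3.9e-04). No row pairs the doubly treated cells with another group for Nfkbia, so its level in them is not known. Nfkbie, the gene of IkB-epsilon, was at 31.0 FPKM with both treatments, 20.9 with interferon-gamma alone, 6.87 with doxycycline alone and 6.65 in untreated construct cells. Its folds with interferon-gamma were 4.52 with doxycycline and 3.14 without in the authors' deposited table (q = 3.9e-04 each). Its parental levels, 6.23 FPKM with doxycycline and 6.44 untreated, were close to those of unstimulated construct cells. A retained-intron entry of Nfkbie stayed far below it, at 2.18 FPKM with both treatments and 0.608 with doxycycline alone, 3.59-fold apart in the authors' deposited table (q = 0.0072).

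Nfkbiz encodes IkB-zeta, a nuclear IkB protein that acts as a co-regulator of secondary inflammatory genes instead of holding NF-kB in the cytoplasm. Its main entry (ENSMUST00000114458) was at 20.0 FPKM with both treatments, 13.9 with interferon-gamma alone, 1.21 with doxycycline alone and 1.28 in untreated construct cells. The parental levels were 1.59 FPKM with doxycycline and 1.74 untreated. Interferon-gamma raised this entry 16.5-fold with doxycycline and 10.8-fold without in the authors' deposited table (q = 3.9e-04 each), the steepest change among the IkB genes. With 1 FPKM added to both levels its interferon-gamma folds are 9.49 with doxycycline and 6.52 without. The other Nfkbiz entry, ENSMUST00000114457, which begins at a more distant upstream start, was at 1.09 FPKM with both treatments and 1.51 with interferon-gamma alone. The 2 entries thus lay in opposite order between the stimulated groups, with no row for either difference.

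Tnfaip3 encodes A20, a ubiquitin-editing enzyme that shuts off signalling from TNF and Toll-like receptors. It was at 31.2 FPKM with both treatments, 29.3 with interferon-gamma alone, 4.90 with doxycycline alone and 5.59 in untreated construct cells, and at 5.85 and 5.40 FPKM in doxycycline-treated and untreated parental cells. Interferon-gamma raised it 6.37-fold with doxycycline and 5.24-fold without in the authors' deposited table (q = 3.9e-04 each). A retained-intron entry reached 0.960 FPKM with both treatments.

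Of the survival targets, Bcl2a1a and Traf1 had the largest interferon-gamma folds of all members with doxycycline. Bcl2a1a, of the A1 family of anti-apoptotic BCL-2 proteins, was at 90.3 FPKM with both treatments, 45.0 with interferon-gamma alone, 1.39 with doxycycline alone and 1.55 in untreated construct cells. The parental cells had 1.27 FPKM with doxycycline and 0.972 untreated. Interferon-gamma raised it 65.0-fold with doxycycline, rank 35 of the 1837 genes called higher, and 29.0-fold without, rank 56 of 1404, in the authors' deposited table (q = 3.9e-04 each). With 1 FPKM added to both levels these folds are 38.2 and 18.0. The Bcl2a1a transcript is 98.2% and 98.8% identical to those of its neighbours Bcl2a1b and Bcl2a1d over the aligned length, so reads may be split among these genes and the level of each is uncertain. Bcl2a1b was at 489 FPKM with both treatments, 380 with interferon-gamma alone, 45.5 with doxycycline alone and 43.0 in untreated construct cells. Bcl2a1d was at 501, 329, 54.7 and 41.8 FPKM in the same order. Both copies rose with interferon-gamma, Bcl2a1b 10.7-fold with doxycycline and 8.84-fold without, and Bcl2a1d 9.15-fold and 7.87-fold, by the authors' deposited table (q = 3.9e-04 each). The copies listed as b and d thus carried most of the family's signal, and the one listed as a the largest fold.

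Traf1, an adaptor that binds TRAF2 and the cIAP proteins at TNF-family receptors, was at 45.2 FPKM with both treatments, 20.8 with interferon-gamma alone, 1.32 with doxycycline alone and 1.95 in untreated construct cells (entry ENSMUST00000028234). In parental cells it was at 0.952 FPKM with doxycycline and 1.27 untreated. Interferon-gamma raised it 34.3-fold with doxycycline and 10.7-fold without in the authors' deposited table (q = 3.9e-04 each). With doxycycline the fold is 19.9 after 1 FPKM is added to both levels, and 19.3 for levels summed over its 3 entries. Its 2 other entries rose too. ENSMUST00000172159, also protein-coding, was at 12.3 FPKM with both treatments, 5.46 with interferon-gamma alone, 0.786 with doxycycline alone and 0.770 in untreated construct cells, and the noncoding ENSMUST00000129131 at 10.8, 6.34, 1.44 and 1.55 FPKM in the same order. Traf1 was also the only member called between unstimulated groups: untreated construct cells were 2.04-fold above doxycycline-treated parental cells in the authors' deposited table (q = 0.0285), a pair that differs in both line and treatment.

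Birc3, the gene of the ubiquitin ligase cIAP2, was at 53.9 FPKM with both treatments, 60.4 with interferon-gamma alone, 13.6 with doxycycline alone and 14.7 in untreated construct cells. Its parental levels were 13.4 FPKM with doxycycline and 13.2 untreated. Interferon-gamma raised it 3.96-fold with doxycycline and 4.10-fold without in the authors' deposited table (q = 3.9e-04 each). It was the only member among the 8 with both stimulated levels for which the level was lower with both treatments than with interferon-gamma alone.

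**Figure D3:**
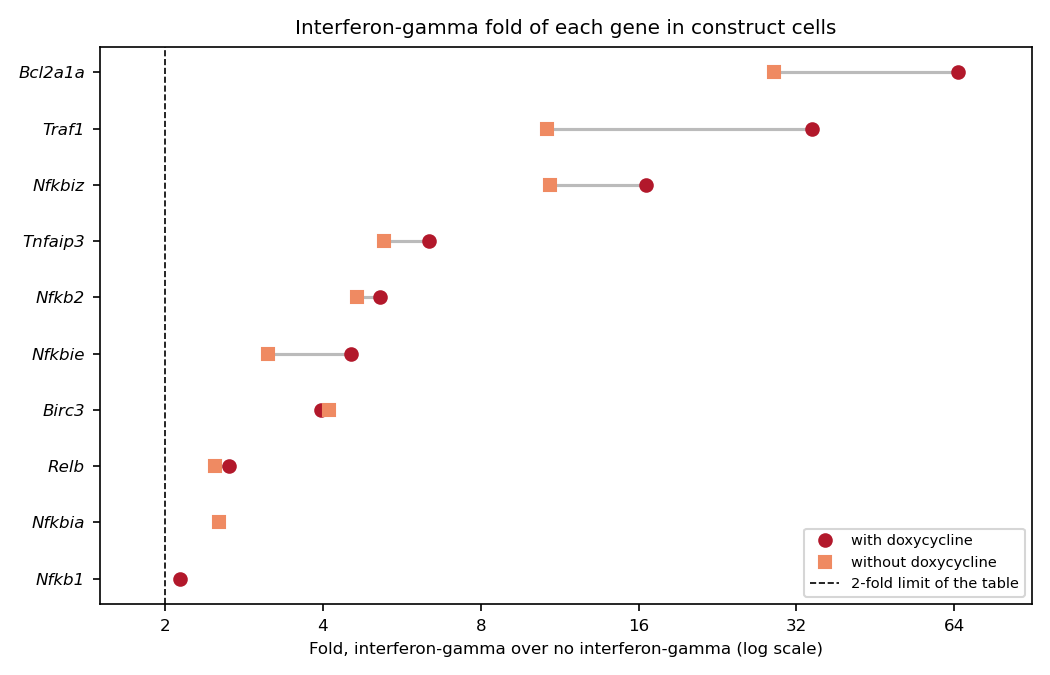
Interferon-gamma fold of each gene in construct cells on a log axis, with doxycycline (circles) and without (squares), from the highest entry. Bcl2a1a, Traf1 and Nfkbiz lie farthest right, and the dashed line is the 2-fold limit below which the table has no rows.

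In untreated construct cells the FPKM levels ran from Nfkbia (45.8) and Birc3 (14.7) through Relb (9.41), Nfkbie (6.65), Nfkb2 (5.75) and Tnfaip3 (5.59) down to Traf1 (1.95), Bcl2a1a (1.55) and Nfkbiz (1.28). The 3 lowest had the 3 largest folds with interferon-gamma alone, though level and fold share the untreated value. Among the other genes the order did not carry over, as Birc3 (14.7 FPKM) rose 4.10-fold, Relb (9.41) 2.49-fold and Nfkbie (6.65) 3.14-fold, by the authors' deposited table. With both treatments the order was Bcl2a1a (90.3), Birc3 (53.9), Traf1 (45.2), Nfkb1 (40.8), Nfkb2 (36.7), Tnfaip3 (31.2), Nfkbie (31.0), Relb (23.5) and Nfkbiz (20.0). Without a spread it cannot be said which neighbours in these orders differ.

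Doxycycline was next compared in stimulated construct cells, which asks how the interferon-gamma response differs once CITED1 is induced. As no parental cells received interferon-gamma in these groups, induced CITED1 and doxycycline itself cannot be told apart here. The cells given interferon-gamma alone already had Cited1 at 11.5 FPKM, against 86.7 with both treatments. Traf1 rose 2.17-fold and Bcl2a1a 2.01-fold in the authors' deposited table (q = 3.9e-04 each), and the other 8 members have no row. Of all listed genes 6.84% were called higher here and 6.34% lower, and the 2 folds ranked 278 and 366 among those 373 genes. Traf1 was at 45.2 FPKM with both treatments and 20.8 with interferon-gamma alone, and its coding entry ENSMUST00000172159 was called as well, at 2.25-fold (q = 3.9e-04 in the authors' deposited table). Its noncoding entry had no row, with a ratio of rebuilt levels of 1.70. Bcl2a1a, at 90.3 and 45.0 FPKM, sits at the edge of the table: its fold is 1.99 once 1 FPKM is added to both levels, and 1.87 after the levels are rescaled to a median log2 ratio of 0. Bcl2a1b and Bcl2a1d have no row here, with ratios of rebuilt levels of 1.29 and 1.52.

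For the members without a row the rebuilt levels still give a ratio, as a description with no test. The level with both treatments over that with interferon-gamma alone was 1.49 for Nfkbie, 1.44 for Nfkbiz, 1.37 for Nfkb2, 1.07 for Tnfaip3, 1.00 for Relb and 0.892 for Birc3. After rescaling, the values of Relb, Tnfaip3 and Birc3 lie below 1 and the other 5 above it. Among 1104 genes called higher in both interferon-gamma comparisons the median ratio was 1.32, and the middle of the distribution, between the 25th and 75th percentiles, ran from 1.09 to 1.64. The median over the 8 members was 1.41. Traf1 and Bcl2a1a therefore lie above that middle range, Nfkbie, Nfkbiz and Nfkb2 within it, and Tnfaip3, Relb and Birc3 below it.

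**Figure D4:**
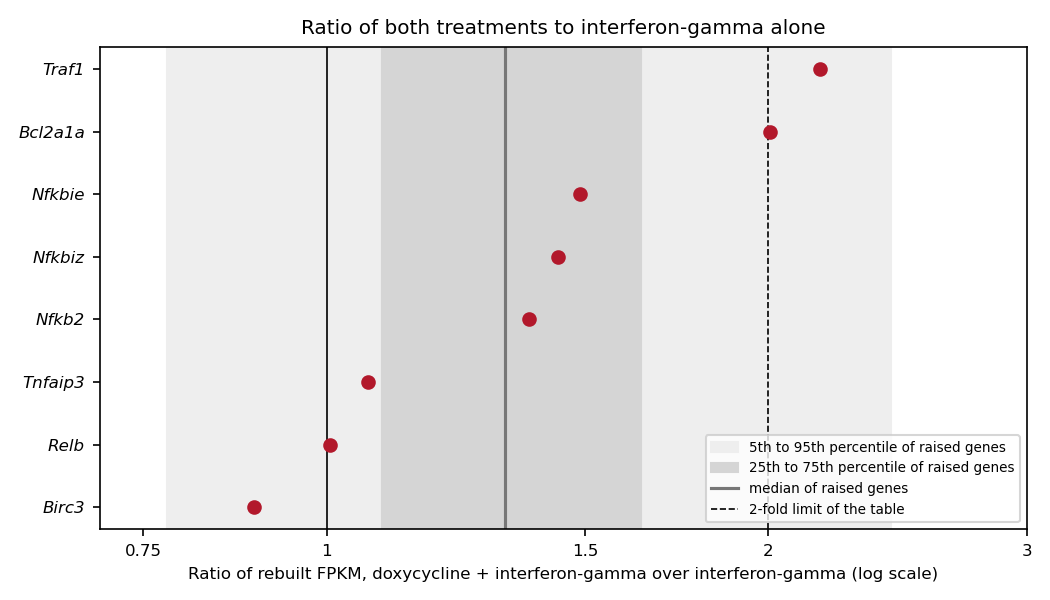
Ratio of rebuilt FPKM with both treatments to that with interferon-gamma alone on a log axis, for the 8 members with both levels. Grey bands show the 5th to 95th and 25th to 75th percentiles of the 1104 genes raised by interferon-gamma in both comparisons; Traf1 (2.17) and Bcl2a1a (2.01) reach the dashed 2-fold limit.

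The interferon-gamma folds with doxycycline and without it come from comparisons that share no group, and they can be set side by side. The fold with doxycycline was 3.21 times that without for Traf1, 2.24 times for Bcl2a1a, 1.53 times for Nfkbiz and 1.44 times for Nfkbie. For Tnfaip3, Nfkb2 and Relb it was 1.22, 1.11 and 1.07 times, and for Birc3 0.966 times. The larger value of Traf1 is that of its main entry. It combines a higher level with both treatments and a lower one with doxycycline alone, 0.677 times that of untreated construct cells. The other coding entry, ENSMUST00000172159, gave 2.202 times, and its level with doxycycline alone was 1.021 times the untreated one. For the noncoding entry these values were 1.839 and 0.927. Levels summed over the entries of Traf1 gave interferon-gamma folds of 19.3 with doxycycline and 7.64 without. The difference between the responses was not tested, since no value per sample is given.

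Within the 4 comparisons of unstimulated cells that differ in 1 factor, the authors called no member. This held for doxycycline in parental cells, where 0.898% of all listed genes were called, and for doxycycline in construct cells, where 0.403% were. It also held for construct against parental cells, where 4.49% of listed genes were called in untreated and 5.61% in doxycycline-treated cells. The rebuilt levels show how far apart the groups were. Doxycycline in construct cells gave ratios from 0.677 for Traf1 to 1.24 for Nfkb2, with a median of 0.942 over 9 members. Doxycycline in parental cells gave ratios from 0.748 for Traf1 to 1.31 for Bcl2a1a. Construct over parental cells ranged from 0.736 for Nfkbiz to 1.59 for Bcl2a1a untreated, and from 0.760 for Nfkbiz to 1.38 for Traf1 with doxycycline. Among the highest entries the widest span over the 4 unstimulated groups was that of Traf1, whose highest level was 2.04 times its lowest. The retained-intron entry of Nfkbie, below 1 FPKM in all 4, spanned 2.17 times.

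The wider pathway was described with 108 further genes in 9 lists, of which 61 have a row in some comparison. With interferon-gamma 39 of them rose and 4 fell in the presence of doxycycline, and 33 rose and 4 fell without it. The lists were chosen with results of these data known, and their counts are set beside the shares over all listed genes given above. Of 9 listed other classical targets 4 were higher with doxycycline and 3 without, with 0 lower, where 33.7% and 25.7% of all listed genes were called higher. Of 5 listed ligands 2 were higher and 1 lower in each comparison. Of 6 listed pro-apoptotic genes 3 were higher and 1 lower with doxycycline, and 2 higher and 0 lower without. Of the subunit and IkB list, members included, 8 of 10 listed genes rose in each interferon-gamma comparison and 0 fell. The median log2 fold of its called genes was 2.17 with doxycycline and 1.68 without, against 1.66 and 1.54 over all genes called higher. Besides the genes above, the nuclear IkB gene Bcl3 rose 5.86-fold with doxycycline and 7.16-fold without, the IkB-beta gene Nfkbib 4.46-fold and 3.28-fold, and the c-Rel gene Rel 3.03-fold and 3.01-fold, by the authors' deposited table. Rel was at 26.5 FPKM with both treatments, 24.0 with interferon-gamma alone, 8.75 with doxycycline alone and 7.99 in untreated construct cells. Rela, the gene of p65, has no row.

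**Figure D5:**
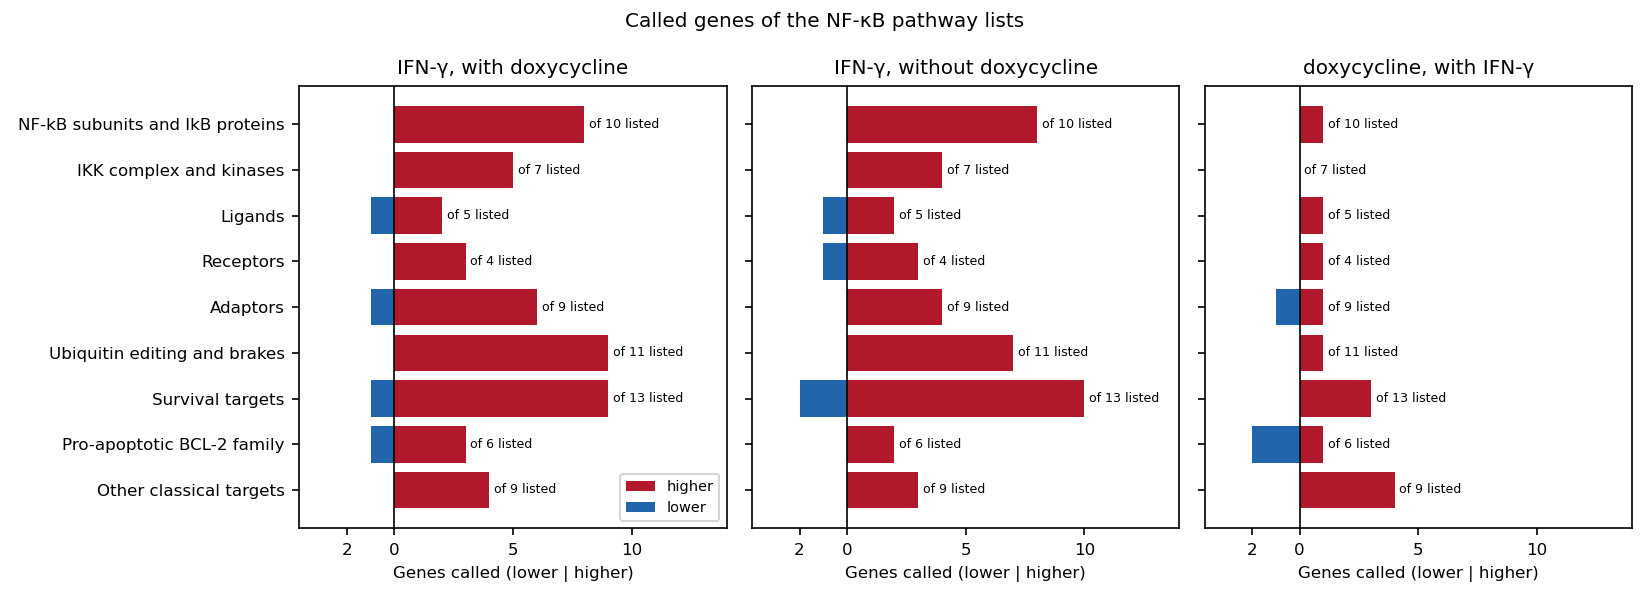
Number of genes called higher (red, right of 0) and lower (blue, left of 0) in each pathway list for 3 comparisons in construct cells, with the number of genes that have a row in any comparison. The 10 members are counted in their lists; both interferon-gamma panels hold mostly higher calls, and the doxycycline panel few calls of either kind.

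Upstream of the IkB proteins, the kinase list had 7 listed genes. With interferon-gamma 5 of them were higher in the presence of doxycycline and 4 without, with 0 lower. Of all listed genes 33.7% and 25.7% were called higher in these comparisons. Ripk2, a kinase downstream of NOD receptors, was at 95.9 FPKM with both treatments, 52.4 with interferon-gamma alone, 8.50 with doxycycline alone and 8.63 in untreated construct cells. Its folds were 11.3 with doxycycline and 6.08 without in the authors' deposited table. Chuk, the gene of IKK-alpha, rose 4.74-fold and 3.19-fold. Map3k14, the gene of NIK, rose 2.07-fold without doxycycline. Ikbkb and Ikbkg, for the other IKK subunits, have no row.

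Among receptors 3 of 4 listed genes rose in each interferon-gamma comparison, where 33.7% of all listed genes were called higher with doxycycline and 25.7% without. Cd40, which drives the noncanonical route, was at 210 FPKM with both treatments, 81.3 with interferon-gamma alone, 1.27 with doxycycline alone and 1.26 in untreated construct cells, for its main entry. It also rose 2.59-fold with doxycycline in stimulated cells in the authors' deposited table (q = 3.9e-04). The TNF receptor genes moved in opposite directions: Tnfrsf1a rose 3.90-fold with doxycycline and 2.85-fold without, and Tnfrsf1b fell 2-fold with interferon-gamma alone. Of the ligands, Tnf rose 19.0-fold with doxycycline and 12.3-fold without, Ltb, the gene of lymphotoxin-beta, rose 3.59-fold and 2.88-fold, and Tnfsf14 fell 2.73-fold and 2.93-fold, by the authors' deposited table. Tnfsf14 stayed below 1 FPKM in all groups with a level.

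Of 9 listed adaptor genes 6 were higher and 1 lower with interferon-gamma in the presence of doxycycline, and 4 higher and 0 lower without. Tank, a TRAF-binding protein, rose 7.15-fold and 3.84-fold, Irak2, an interleukin-1 receptor kinase, 5.56-fold and 4.08-fold, and Ticam1, the gene of TRIF, 3.29-fold and 3.07-fold, by the authors' deposited table. Malt1, part of the CARD-BCL10 signalling complex, fell 2.51-fold with doxycycline present in that table. It was also 2.34-fold lower with both treatments than with interferon-gamma alone, at 1.95 against 4.56 FPKM (q = 0.0033 in the authors' deposited table). Of 11 listed brake and ubiquitin-editing genes 9 were higher with doxycycline and 7 without, with 0 lower. For this list and the adaptors the shares called higher over all listed genes were 33.7% with doxycycline and 25.7% without. Peli1, a ubiquitin ligase of Toll-like and interleukin-1 receptor signalling, rose 9.62-fold and 5.12-fold, and Rnf31, the gene of the linear ubiquitin ligase HOIP, 5.90-fold and 3.82-fold. Peli1 rose 2.11-fold with doxycycline in stimulated cells, at 91.0 against 43.1 FPKM (q = 3.9e-04 in the authors' deposited table).

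Of the 13 listed genes of the survival list, members included, 9 were higher and 1 lower with interferon-gamma in the presence of doxycycline. Without doxycycline 10 were higher and 2 lower. Over all listed genes 33.7% were called higher with doxycycline and 25.7% without. Cflar, the gene of the caspase-8 inhibitor c-FLIP, was at 74.4 FPKM with both treatments, 47.2 with interferon-gamma alone, 14.8 with doxycycline alone and 14.4 in untreated construct cells. Gadd45b rose 4.56-fold with doxycycline and 4.24-fold without in the authors' deposited table. Among the genes that fell was Sod2, which encodes the mitochondrial superoxide dismutase, at 5.89 FPKM with interferon-gamma alone and 12.0 in untreated construct cells. Genes that promote cell death did not move one way. Pmaip1, the gene of the BH3-only protein NOXA, rose 16.3-fold with doxycycline and 13.4-fold without, to 315 and 221 FPKM. In stimulated cells doxycycline raised an entry of Bcl2l11, the gene of BIM, 2.44-fold, at 10.2 against 4.17 FPKM. It lowered Bbc3, the gene of PUMA, 2.30-fold, at 15.3 against 35.3 FPKM, and Bmf 2.49-fold, at 1.28 against 3.19 FPKM (q = 3.9e-04 each in the authors' deposited table). Bcl2l1, the gene of BCL-XL, rose 2.30-fold in the same comparison for 1 entry (q = 0.0157 in the authors' deposited table). That entry was at 22.3 against 9.68 FPKM. The higher Bcl2l1 entry has no row there, at 65.8 against 52.4 FPKM.

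In stimulated cells doxycycline raised 10 of the 61 listed further pathway genes and lowered 3, in a comparison where 6.84% of all listed genes were called higher and 6.34% lower. Besides Cd40, Peli1 and 1 entry each of Bcl2l11 and Bcl2l1, these included the nuclear IkB gene Nfkbid (2.06-fold, at 9.53 against 4.63 FPKM). The cytokine genes Il1b (3.64-fold, at 3.34 against 0.918 FPKM) and Il6 (2.89-fold, at 3.96 against 1.37 FPKM) rose too. So did the chemokine genes Cxcl2 (2.73-fold) and Ccl2 (2.32-fold), and Ccrl2 (2.2-fold), in the authors' deposited table. In unstimulated cells doxycycline changed 0 of the 61 genes in parental cells and lowered 1 in construct cells, Cxcl2, 2.5-fold in the authors' deposited table. Construct against parental cells gave 2 genes higher and 4 lower with doxycycline, and 2 higher and 3 lower untreated, beside the shares of all listed genes given above. Cd83 was called higher in construct cells through different entries, ENSMUST00000221359 with doxycycline (2.53-fold) and ENSMUST00000015540 untreated (2.14-fold). With doxycycline the rebuilt levels of ENSMUST00000015540, the higher of these entries, were less than 2-fold apart. Ptgs2 was lower in construct cells, 2.86-fold with doxycycline (0.969 against 2.77 FPKM) and 2.16-fold untreated (1.36 against 2.95 FPKM). With doxycycline Cxcl2 and Tnf were also lower, 2.22-fold and 2.03-fold, and untreated Ccl2 was lower, 2.33-fold. Construct cells had more Bmf than parental cells, 4.33-fold untreated and 14.3-fold with doxycycline, and less Ccrl2, 3.38-fold and 3.91-fold, by the authors' deposited table. These folds rest on low levels. Bmf was at 1.67 against 0.386 FPKM untreated and 2.75 against 0.192 with doxycycline. The called Ccrl2 entry was at 0.621 against 2.10 FPKM untreated and 0.495 against 1.94 with doxycycline. A second Ccrl2 entry, with no row here, was at 0.412 against 0.301 FPKM untreated and 0.445 against 0.612 with doxycycline.

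The genes whose levels over the 4 construct groups were most like those of Nfkb2 were found by the Euclidean distance of log2 levels centred on each entry's mean, among 3230 entries with all 4 levels. The closest was an entry of Srgn, the gene of the granule proteoglycan serglycin, at a distance of 0.0386. This entry, which is not the highest of Srgn, was at 212 FPKM with both treatments and 152 with interferon-gamma alone. It was at 39.6 FPKM with doxycycline alone and 32.4 in untreated construct cells. Entries of Dst, Zfand3, Rhbdf2 and Fbxw17 followed at distances of 0.0912, 0.101, 0.103 and 0.108. Those of Rhbdf2 and Fbxw17 are not the highest of their genes either.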

How the data were processed

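For 18 samples in 6 groups of 3, RNA was poly(A)-selected and made into directional libraries, per the labels' protocols. Whether replicates are separate cultures is not stated there. FastQC 0.11.5, STAR 2.5.3a, Cuffdiff 2.2.1, edgeR and featureCounts are named, with no role, by the submitters' processing notes; the authors' genome build is not given in the sources used here. Per the file headers, the deposited table holds a linear fold (a ratio) between 2 groups, their total FPKM, and a q-value adjusted by the authors, with no statement of how FPKM were scaled or over which tests q was adjusted. Of its 112230 rows, 34824 join 2 of the 6 groups, over 15 pairs; the other 77406 were set aside.

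Taking the total as a sum, the lower of both levels is the total over 1 plus the fold, and the higher is that times the fold. Absolute FPKM rest on this reading and ratios do not. Several levels of an entry and group were combined by their median. Assembled-locus names beside a gene symbol were dropped. A gene was called by its listed rows, and for genes with several called entries the one of highest summed FPKM was printed. The members and the 9 pathway lists were chosen with earlier results of these data known. All members are named. Further genes were drawn from up to 4 called genes per list and comparison by size of fold. Not all of these are printed, among them Ccrl2, Cxcl2 and Ccl2 with interferon-gamma. Cflar, Sod2, Malt1 with interferon-gamma, Rela, Ikbkb and Ikbkg were named after their values were seen. The authors' calls are used throughout (q of 0.05 or less, at least 2-fold). Tests on single samples had been planned, but the table has no such values, so none was run. Promoter sequences are RefSeq's (GRCm38.p6) and transcripts GENCODE M21. Rebuilding and counting were tested on simulated data. Tools were Python 3.11.15, pandas 2.3.3, numpy 2.4.6 and matplotlib 3.10.9.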

Additional observations from a re-analysis of the deposited data

How the results depend on the processing

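Counts of called members were recomputed for the 7 comparisons at a q of 0.01 or less, with 1 FPKM or more required in either group, with a pseudocount of 1 FPKM, with levels rescaled to a median log2 ratio of 0, and with every entry counted on its own. All stayed within 1.5 times the reported count except doxycycline in stimulated cells, where 2 members became 1 with the pseudocount and 1 with rescaled levels, Traf1 being left each time. Rescaling moved the median log2 ratio by 0.10 in that comparison, where 3090 of 3859 entries have no call. In the interferon-gamma comparisons it moved it by 1.02 with doxycycline and 0.65 without, but there 4483 of 4706 and 3211 of 3846 entries are called ones, which are at least 2-fold by construction, so these medians are set by the listing and measure no general shift. With rescaled levels the count of members with interferon-gamma went from 9 to 6 with doxycycline and from 9 to 7 without. Rescaling left 6 of 20 member folds below 2-fold and none changed direction. Levels summed over a gene's entries kept all 20 folds at 2 or more, though that of Traf1 with both treatments over doxycycline alone was 19.3 instead of 34.3. The pseudocount lowered the folds of Traf1, Bcl2a1a and Nfkbiz by over 1.5 times in that comparison, to 19.9, 38.2 and 9.49. Levels from the 7 comparisons alone differed by at most 0.0675%. No paired analysis was possible because the table holds no values per sample, and leaving out replicates was not run for the same reason. Depth is unknown.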
